A study of Mus musculus with 6 samples.

Results

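The genes described here encode the major histocompatibility complex (MHC) and the machinery that loads it. They were all genes whose GRCm38 symbol starts with H2-, together with B2m, Tap1, Tap2, Tapbp, Nlrc5, Ciita, Cd74 and Erap1. They numbered 53 of 53465 genes in the count tables, 45 with H2- symbols and 8 others, and 48 lay on chromosome 17. The set was chosen by the rise of one member, H2-Eb1, so the values of H2-Eb1 are given as a description with no test. At least 1 read was counted for 42 members, 11 had 0 counts in every library, and 29 passed the filter on low counts.

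RNA was sequenced from Royan B20, a line of mouse embryonic stem cells, grown on 0.1% gelatin with the cytokine LIF and passaged 7 times in R2i. R2i holds 1 µM of a MEK inhibitor, written PD0329501 in the labels, and 10 µM SB431542, which inhibits the TGF-beta, activin and nodal receptors. Both groups carried these agents: 3 R2i control libraries received nothing further, and 3 R2i_BMPi libraries, called BMP-inhibited below after their label, also received 250 nM noggin, a BMP antagonist, and 5 µM dorsomorphin, which blocks type I BMP receptors. Each group's 3 libraries are described as biological replicates of this 1 line, with no separate cultures named, so p-values measure the spread between these libraries. The time in the inhibitors and the H2 haplotype of the line are not stated in the labels.

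MHC class I molecules are surface complexes of a heavy chain and the light chain B2m that show peptides from inside the cell to CD8+ T cells. Class II molecules pair an alpha with a beta chain and show peptides taken up from outside to CD4+ T cells, mainly on B cells, dendritic cells and macrophages. The promoters of both kinds share a module of an X box and a Y box, the second an inverted CCAAT box, on which the coactivators CIITA (class II) and NLRC5 (class I) act. Mouse embryonic stem cells are known for low surface class I.

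RefSeq promoter windows (GRCm38.p6, 250 bases before to 50 after the start) were held for 36 of the 53 members. Those of H2-Eb1, of its neighbour H2-Eb2, of the classical class I gene H2-D1 and of the non-classical class I gene H2-Q4 are shown over the 200 bases before the start, because these genes share motifs and differ in level and direction. Capitals mark 3 motifs, searched on both strands: the X box core GNNACNGAT, CCAAT (read ATTGG on the other strand) and the kappaB letters GGGATTCCC.
H2-Eb1 (chr17:34305667-34305866, + strand): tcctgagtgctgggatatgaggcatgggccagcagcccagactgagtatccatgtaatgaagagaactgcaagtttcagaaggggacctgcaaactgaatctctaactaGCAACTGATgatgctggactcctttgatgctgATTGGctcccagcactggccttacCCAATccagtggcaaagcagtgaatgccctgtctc
H2-Eb2 (chr17:34325475-34325674, + strand): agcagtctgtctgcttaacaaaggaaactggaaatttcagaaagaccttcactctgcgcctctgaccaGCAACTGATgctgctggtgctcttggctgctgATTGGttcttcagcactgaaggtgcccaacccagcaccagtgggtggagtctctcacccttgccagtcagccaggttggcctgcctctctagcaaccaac
H2-D1 (chr17:35262894-35263093, + strand): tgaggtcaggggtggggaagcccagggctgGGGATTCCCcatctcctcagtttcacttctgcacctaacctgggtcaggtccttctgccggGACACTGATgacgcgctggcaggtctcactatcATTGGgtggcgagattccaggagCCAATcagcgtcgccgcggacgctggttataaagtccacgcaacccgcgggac
H2-Q4 (chr17:35379417-35379616, + strand): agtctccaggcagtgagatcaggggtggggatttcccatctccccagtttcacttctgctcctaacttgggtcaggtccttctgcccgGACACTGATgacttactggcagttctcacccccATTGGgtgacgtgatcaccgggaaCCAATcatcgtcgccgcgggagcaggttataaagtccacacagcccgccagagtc
In H2-Eb1 the X box core spanned positions -91 to -83 from the start, followed by ATTGG at -59 to -55 and CCAAT at -35 to -31. H2-Eb2 held the same 9 letters of the X box core, GCAACTGAT, at -132 to -124, with ATTGG at -100 to -96. H2-D1 and H2-Q4 both read GACACTGAT, and both had ATTGG and CCAAT downstream. The exact kappaB letters were present in H2-D1, at -170 to -162, and not in the window of H2-Q4. At the matching place H2-Q4 reads gggatttccc where H2-D1 reads gggattcccc. Such variants were not searched, so H2-Q4 cannot be said to lack a site. The X box core was found in 18 of the 36 member windows and in 7.82% of all 32851 windows, and CCAAT in 31 of the 36 and in 37.4% of all windows. The kappaB letters were found in H2-D1, H2-K1, H2-Q6 and H2-Q7, against 0.353% of all windows. The interferon response core GAAANNGAA, searched in the same way, was found in B2m, Erap1, H2-T22 and H2-T23, and in 8.56% of all windows. In 8 members (H2-Eb1, H2-Eb2, H2-DMb1, H2-D1, H2-Q4, H2-Q6, H2-Q7 and H2-M3) the CCAAT box was inverted and began 32 or 33 bases after the beginning of the X box core. Windows with such a pair at a spacing of 30 to 35 bases made up 0.0609% of all windows, belonging to 18 genes. This spacing was chosen after the matches had been seen. These matches are letters in a window and do not show that a factor bound there.

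The 6 libraries held 31474666 to 35322844 gene counts. Levels are CPM, counts relative to the TMM-scaled library size, and differences are log2 fold changes of BMP-inhibited minus control from edgeR's quasi-likelihood F test, with Benjamini-Hochberg adjustment over all 15951 genes tested. A gene was called at an adjusted p under 0.05. Because 64.2% of all genes tested were called, 32.5% higher and 31.7% lower, a call by itself is common in this comparison. Of the 28 tested members other than H2-Eb1, 10 were called higher, 7 lower and 11 were not called, which is 60.7% called. H2-M10.4, among the 10, passed the count filter through the BMP-inhibited group alone, so it had to differ, and without it 9 of 27 were higher and 59.3% were called. With libraries scaled by their totals alone, 7 members were called higher and 9 lower. The libraries of the groups did not overlap for 19 of the 28 (67.9%) and for 68.6% of all genes tested. The median log2 fold change of the tested members with H2-Eb1 was 0.04, beside 0.00 over all genes tested. The class II genes and the loading helpers among the members were mostly higher or not called, and the classical class I heavy chains were not called. The non-classical class I genes were called in both directions. Besides H2-M10.4, those called higher were H2-K2, H2-Q6 and H2-M6-ps. All lost the call with library totals (adjusted p = 0.0639, 0.0568 and 0.0697). None of the 6 called lower lost its call in any alternative fit that tested it.

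Among the classical class II genes, the beta chains H2-Eb1 and H2-Ab1 and the alpha chain H2-Aa had more reads in every BMP-inhibited library than in any control library. H2-Eb1 (ENSMUSG00000060586, chr17:34305867-34316674, + strand), the beta chain of the E molecule, stood at 1.87, 1.99 and 2.11 CPM in the controls and at 18.7, 17.2 and 17.6 CPM in the BMP-inhibited libraries. Those levels came from 64, 72 and 70 counts against 580, 535 and 579 counts. All 3 BMP-inhibited libraries were far above all 3 controls, with little spread in either group. The means were 1.99 ± 0.119 and 17.8 ± 0.799 CPM (SD, n = 3 each), a log2 fold change of 3.16 with a standard error of 0.12. It lay between 3.10 and 3.20 under all 12 alternative settings tried.

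H2-Ab1, the beta chain of the A molecule, rose. Its levels were 0.673, 0.497 and 0.362 CPM in the controls, from 23, 18 and 12 counts, and 1.10, 1.93 and 1.74 CPM in the BMP-inhibited libraries, from 34, 60 and 57 counts. The groups did not overlap, and the lowest BMP-inhibited library was the first. The log2 fold change was 1.63 with a standard error of 0.33 (adjusted p = 0.000399). H2-Aa, the partner of H2-Ab1 in the A molecule, did not pass the count filter. It had 0, 1 and 0 counts in the controls and 8, 3 and 8 in the BMP-inhibited libraries, a ratio of 20.7 with an exact 95% binomial interval of 3.30 to 861 that covers counting error only. H2-Eb2, a second E beta gene, had 6, 2 and 5 counts against 6, 8 and 8 and was not tested. H2-Ea-ps, annotated as a pseudogene of the E alpha chain, had 1 count in the controls and 4 in the BMP-inhibited libraries. The summed level of the 5 classical class II genes was 2.65 ± 0.0669 CPM in controls and 19.9 ± 0.351 CPM in BMP-inhibited cells, and 0.656 ± 0.173 and 2.06 ± 0.451 CPM without H2-Eb1.

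Cd74 encodes the invariant chain, which holds the class II groove and guides class II molecules to the compartments where peptides are loaded. It lies apart from the MHC, on chromosome 18, and rose too. Its levels were 1.49, 1.21 and 1.09 CPM in the controls and 4.97, 5.39 and 4.60 CPM in the BMP-inhibited libraries. Every BMP-inhibited library was above every control. The means were 1.26 ± 0.208 and 4.99 ± 0.398 CPM (SD, n = 3 each), with a log2 fold change of 1.98 and a standard error of 0.19 (adjusted p = 1.79e-07).

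**Figure D1:**
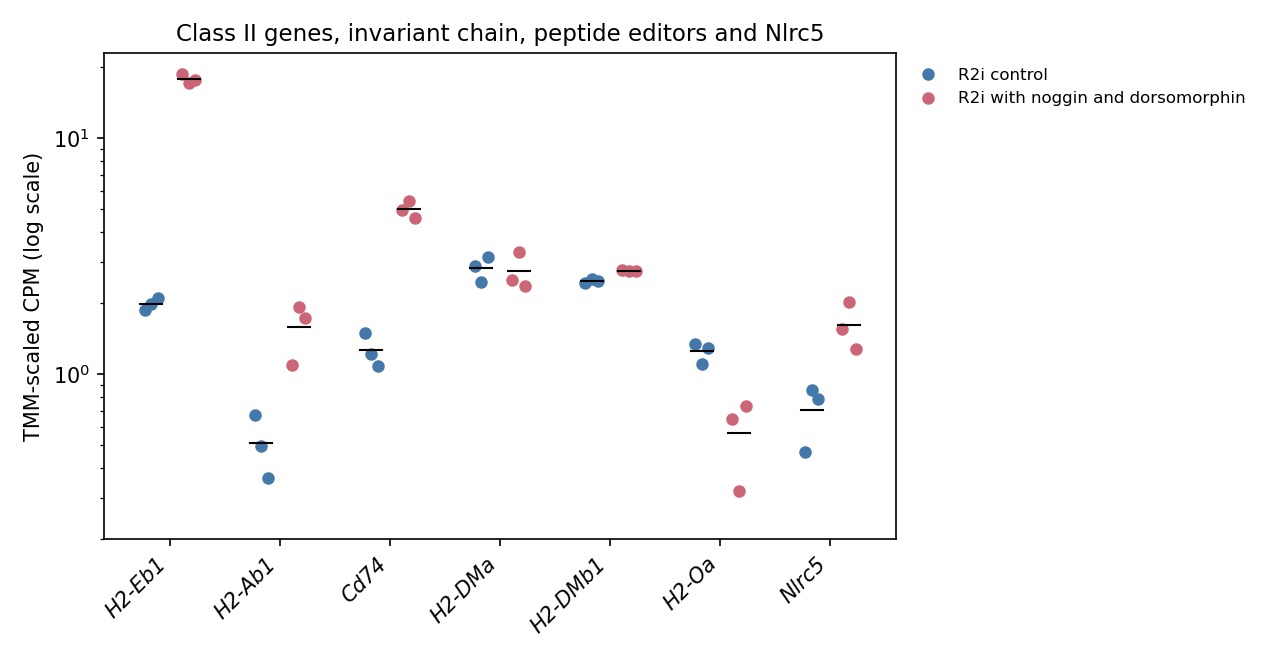
TMM-scaled CPM on a log axis of H2-Eb1, H2-Ab1, Cd74, 3 peptide editors and Nlrc5, with 1 point per library and a line at each group mean of 3 libraries. H2-Eb1, H2-Ab1, Cd74 and Nlrc5 lie higher in BMP-inhibited cells, H2-Oa lies lower, and H2-DMa overlaps.

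None of the 3 tested class II peptide editors was called higher. H2-DM, made of H2-DMa and H2-DMb chains, exchanges the peptide in class II molecules. H2-DMa stood at 2.87, 2.46 and 3.14 CPM in controls and 2.52, 3.31 and 2.38 CPM in BMP-inhibited libraries, and was not called (log2 fold change -0.04, adjusted p = 0.853). H2-DMb1 stood at 2.43, 2.54 and 2.47 CPM against 2.78, 2.73 and 2.74 CPM. Its groups did not overlap, but the gene was not called (log2 fold change 0.15, adjusted p = 0.467). H2-Oa, a chain of the H2-O molecule that tunes H2-DM, fell from 1.35, 1.10 and 1.30 CPM to 0.646, 0.321 and 0.731 CPM, with a log2 fold change of -1.13 and a standard error of 0.33 (adjusted p = 0.00651). All 3 BMP-inhibited libraries were below all controls. Antisense exons of BC051537 covered 22.8% of the exon length of H2-Oa, and antisense exons of Brd2 covered 10.4% of that of H2-DMa. The strand setting of the counting was not given in the sources used here. H2-DMb2 had 4 counts in controls and 1 in BMP-inhibited libraries, and H2-Ob had 0 counts in every library.

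The coactivators differed in how far they could be measured. Nlrc5, the coactivator of class I genes, was at 0.468, 0.855 and 0.784 CPM in controls and at 1.55, 2.02 and 1.28 CPM in BMP-inhibited libraries. The groups did not overlap, and Nlrc5 rose with a log2 fold change of 1.19 and a standard error of 0.30 (adjusted p = 0.00255). Ciita, the coactivator of class II genes, was not tested. It had 8, 7 and 6 counts in controls and 3, 5 and 16 counts in BMP-inhibited libraries, 21 against 24 in all, and the groups overlapped. Of the 24 counts, 16 came from BMP-inhibited library 3.

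The classical class I molecules K and D and their light chain were not called. H2-K1 stood at 35.3, 37.0 and 38.0 CPM in controls and at 29.8, 36.0 and 33.4 CPM in BMP-inhibited libraries, with overlapping groups (log2 fold change -0.15, standard error 0.07, adjusted p = 0.0736). It passed the threshold as lower without BMP-inhibited library 2 (log2 fold change -0.21, adjusted p = 0.00801) and when libraries were scaled by their totals alone (-0.21, adjusted p = 0.0205). H2-D1 stood at 46.7, 49.4 and 47.1 CPM against 44.6, 52.7 and 49.7 CPM (log2 fold change 0.04, standard error 0.06, adjusted p = 0.623). B2m, the light chain of all class I molecules, stood at 30.6, 30.3 and 27.1 CPM against 25.4, 29.0 and 26.8 CPM (log2 fold change -0.12, standard error 0.07, adjusted p = 0.183), and passed as lower without BMP-inhibited library 2 (adjusted p = 0.0496). The libraries of both groups overlapped for all 3 genes. H2-D1 and H2-K1 are near-identical over much of their transcripts, so reads may be lost or shared between them. The reference carries the C57BL/6J alleles of these polymorphic genes, and a line of another haplotype could lose reads. The effect of either on these levels was not tested.

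Of the 5 class I helpers, Tapbp, Tap1 and Tap2 rose, and B2m and Erap1 were not called. Tapbp encodes tapasin, which holds empty class I molecules at the transporter. It rose from 23.3, 20.7 and 22.8 CPM to 39.3, 43.8 and 44.9 CPM, with a log2 fold change of 0.94 and a standard error of 0.07 (adjusted p = 1.92e-08). Other genes covered 29.0% of its exon length, Zbtb22 on the same strand and Gm19412 on the opposite one. Tap1, 1 of the 2 chains of the peptide transporter, rose from 5.59, 6.15 and 6.09 CPM to 11.1, 12.0 and 10.8 CPM (log2 fold change 0.93, standard error 0.11, adjusted p = 1.53e-06). Neither Tapbp nor Tap1 overlapped between groups. Tap2, the second transporter chain, was at 1.96, 2.01 and 1.69 CPM against 3.00, 2.54 and 3.01 CPM and rose as well (log2 fold change 0.59, standard error 0.19, adjusted p = 0.0122), a call lost without control library 3 (0.51, adjusted p = 0.0570). Antisense exons of Gm15821 and Gm20496 covered 18.5% of its exon length. Erap1, the aminopeptidase that trims peptides in the endoplasmic reticulum, was at 1.81, 2.59 and 2.86 CPM against 2.20, 1.48 and 2.44 CPM, with overlapping groups (log2 fold change -0.25, standard error 0.24, adjusted p = 0.368). The 5 helpers together stood at 61.9 ± 1.4 CPM in controls and 86.0 ± 4.32 CPM in BMP-inhibited cells.

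**Figure D2:**
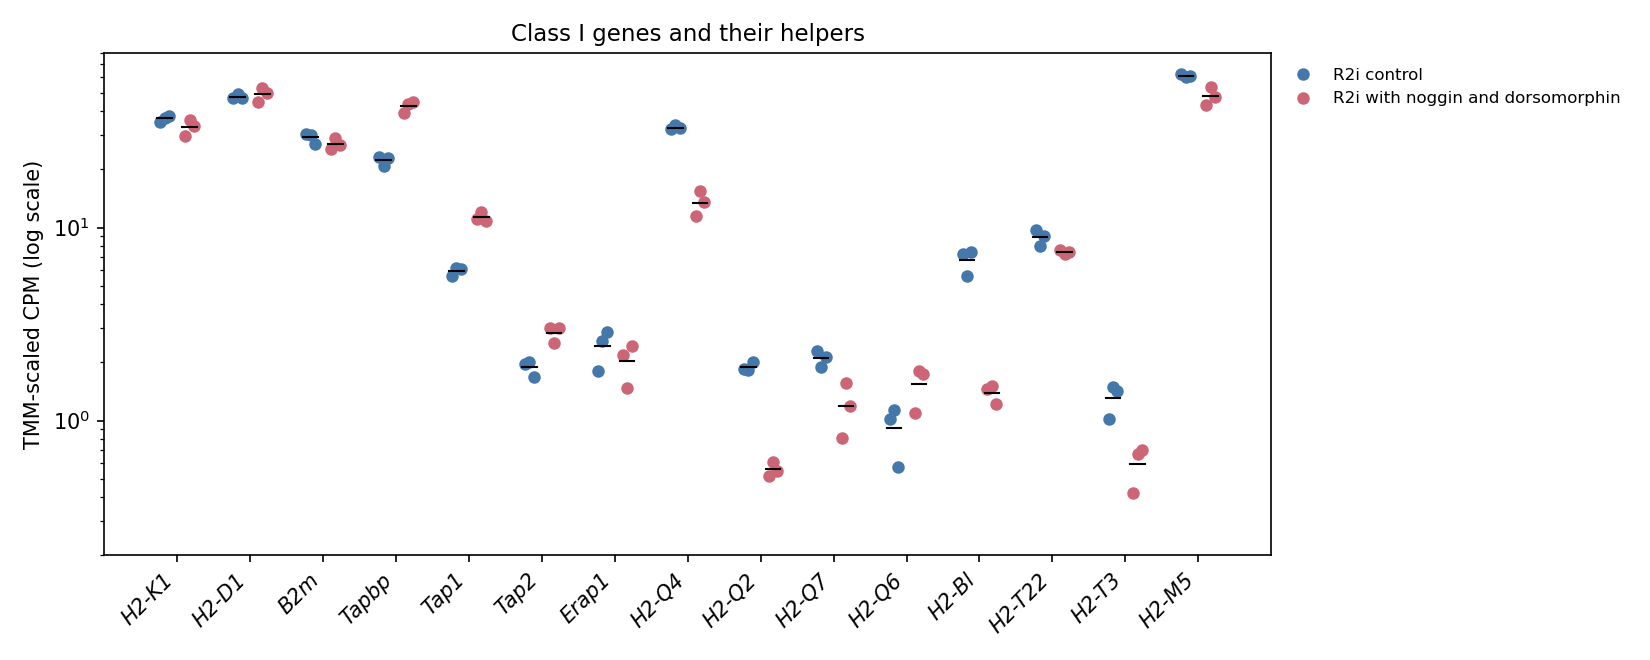
TMM-scaled CPM on a log axis of classical class I genes, their helpers and 8 non-classical class I genes, with 1 point per library and a line at each group mean of 3 libraries. Tapbp, Tap1 and Tap2 lie higher in BMP-inhibited cells, H2-Q4, H2-Q2, H2-Q7, H2-Bl, H2-T3 and H2-M5 lie lower, and H2-K1, H2-D1 and B2m overlap.

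Non-classical class I genes, which are less polymorphic than the classical ones and often have restricted expression, formed 30 of the 53 members. Of these, 14 were tested, with 4 called higher, 6 called lower and 4 not called, or 3 higher of 13 without H2-M10.4. Their summed level was 159.9 ± 4.29 CPM in controls and 126.9 ± 10.5 CPM in BMP-inhibited cells. The H2-Q genes summed to 39.0 ± 0.962 and 18.0 ± 2.73 CPM, the H2-T genes to 11.9 ± 0.271 and 10.1 ± 0.284 CPM, and the H2-M genes to 100.1 ± 4.08 and 94.4 ± 7.55 CPM.

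H2-Q4 held most of the summed H2-Q counts. It fell from 32.2, 34.0 and 32.7 CPM to 11.4, 15.4 and 13.5 CPM, with a log2 fold change of -1.29 and a standard error of 0.09 (adjusted p = 7.08e-09). Antisense exons of Gm11131 covered 19.1% of its exon length. H2-Q2 fell from 1.84, 1.82 and 2.02 CPM to 0.517, 0.610 and 0.548 CPM (log2 fold change -1.76, standard error 0.26, adjusted p = 2.36e-05). H2-Q7, of the Qa-2 family, fell from 2.28, 1.90 and 2.14 CPM to 0.807, 1.57 and 1.19 CPM (log2 fold change -0.82, standard error 0.25, adjusted p = 0.010). The groups of these 3 genes did not overlap. H2-Q6, also of the Qa-2 family, went the other way, from 1.02, 1.13 and 0.573 CPM to 1.10, 1.8 and 1.74 CPM (log2 fold change 0.76, standard error 0.30, adjusted p = 0.0387). Its groups overlapped. Its call was lost with DESeq2 (adjusted p = 0.0694), with library totals (0.0568) and without control library 1 (0.0613), control library 3 (0.174), BMP-inhibited library 2 (0.104) or BMP-inhibited library 3 (0.117). H2-Q10, a secreted class I molecule known from liver, was not called (log2 fold change 0.32, standard error 0.27, adjusted p = 0.310), with 0.878, 0.966 and 0.995 CPM against 1.26, 0.995 and 1.28 CPM, groups that touch. H2-Q5, annotated as a polymorphic pseudogene, had 13 counts in controls and 11 in BMP-inhibited libraries and was not tested.

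H2-Bl, named for the blastocyst and annotated as a polymorphic pseudogene, fell furthest among the tested members. It stood at 7.29, 5.60 and 7.45 CPM in controls and at 1.45, 1.51 and 1.22 CPM in BMP-inhibited libraries, with no overlap (log2 fold change -2.28, standard error 0.18, adjusted p = 2.24e-08). H2-T3, the thymus leukaemia antigen, fell from 1.02, 1.49 and 1.42 CPM to 0.420, 0.674 and 0.700 CPM (log2 fold change -1.12, standard error 0.31, adjusted p = 0.00473). H2-T22, a ligand of gamma delta T cells, was at 9.66, 8.06 and 9.02 CPM against 7.69, 7.29 and 7.49 CPM. Its groups did not overlap, and it was not called (log2 fold change -0.25, standard error 0.11, adjusted p = 0.0573), although it passed as lower with library totals (adjusted p = 0.0218) and without control library 2 (0.0362). Antisense exons of A930015D03Rik covered 29.4% of its exon length. Its close relative H2-T10, annotated as a polymorphic pseudogene, was at 1.14, 1.85 and 1.63 CPM against 1.29, 1.67 and 1.8 CPM. H2-T10 was not called (log2 fold change 0.04, adjusted p = 0.891). H2-T23, which encodes Qa-1, had 4 counts against 10, and the pseudogene H2-T-ps had 11 against 32. Neither was tested.

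Among the H2-M genes, H2-M5 and the pseudogene H2-M6-ps lie near each other on chromosome 17 and moved in opposite directions. H2-M5 (chr17:36984061-36989537) fell from 62.5, 60.2 and 61.2 CPM to 43.3, 53.2 and 47.7 CPM (log2 fold change -0.35, standard error 0.07, adjusted p = 0.000266). H2-M6-ps (chr17:36969195-36971396) rose from 40.8, 34.9 and 38.7 CPM to 43.5, 47.4 and 41.6 CPM (log2 fold change 0.21, standard error 0.07, adjusted p = 0.0142). Its call was lost with library totals (adjusted p = 0.0697) and without control library 2 (0.129). Neither shares annotated exons with another gene. H2-M10.4, of a family known from vomeronasal sensory neurons, had 0, 1 and 0 counts in controls and 17, 28 and 50 counts in BMP-inhibited libraries. All BMP-inhibited libraries were above all controls, with a ratio of 103.6 and an exact 95% binomial interval of 18.2 to 4136 for counting error only. It entered the test through the BMP-inhibited group alone, so no p is given. H2-M3, which presents N-formylated peptides, was at 0.644, 0.772 and 0.573 CPM against 0.678, 1.12 and 1.31 CPM and was not called (log2 fold change 0.64, standard error 0.33, adjusted p = 0.0966). It passed as higher without BMP-inhibited library 1 (0.87, adjusted p = 0.0294). H2-M2 had 2 counts in controls and 10 in BMP-inhibited libraries, a ratio of 5.46 with an interval of 1.16 to 51.2.

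The pseudogene H2-K2 was at 1.99, 2.04 and 2.41 CPM in controls and at 2.62, 3.15 and 3.14 CPM in BMP-inhibited libraries, without overlap (log2 fold change 0.47, standard error 0.19, adjusted p = 0.0370). Its call was lost with DESeq2 (adjusted p = 0.0826), with library totals (0.0639), without a count filter (0.0587) and without control library 1 (0.120), control library 2 (0.110), BMP-inhibited library 2 (0.0753) or BMP-inhibited library 3 (0.0919). H2-Ke6 carries an H2- symbol but is an enzyme gene that presents no antigen. It was at 0.439, 0.579 and 0.482 CPM against 0.226, 0.482 and 0.305 CPM and was not called (log2 fold change -0.57, standard error 0.41, adjusted p = 0.231), and Gm20427 covered 86.4% of its exon length. Of the 24 members not tested, 7 had at least 10 counts over the 6 libraries and are named above, 6 had 1 to 9 counts and 11 had 0. Near-identical transcripts of another gene were found for 11 of the 29 tested members, H2-Bl, H2-Q4, H2-Q6 and H2-Q7 among them, and their separate levels are uncertain. None was found for H2-Eb1, H2-Ab1, Cd74, Tap1, Tap2, Tapbp, H2-M5, H2-M6-ps or H2-Q2.

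**Figure D3:**
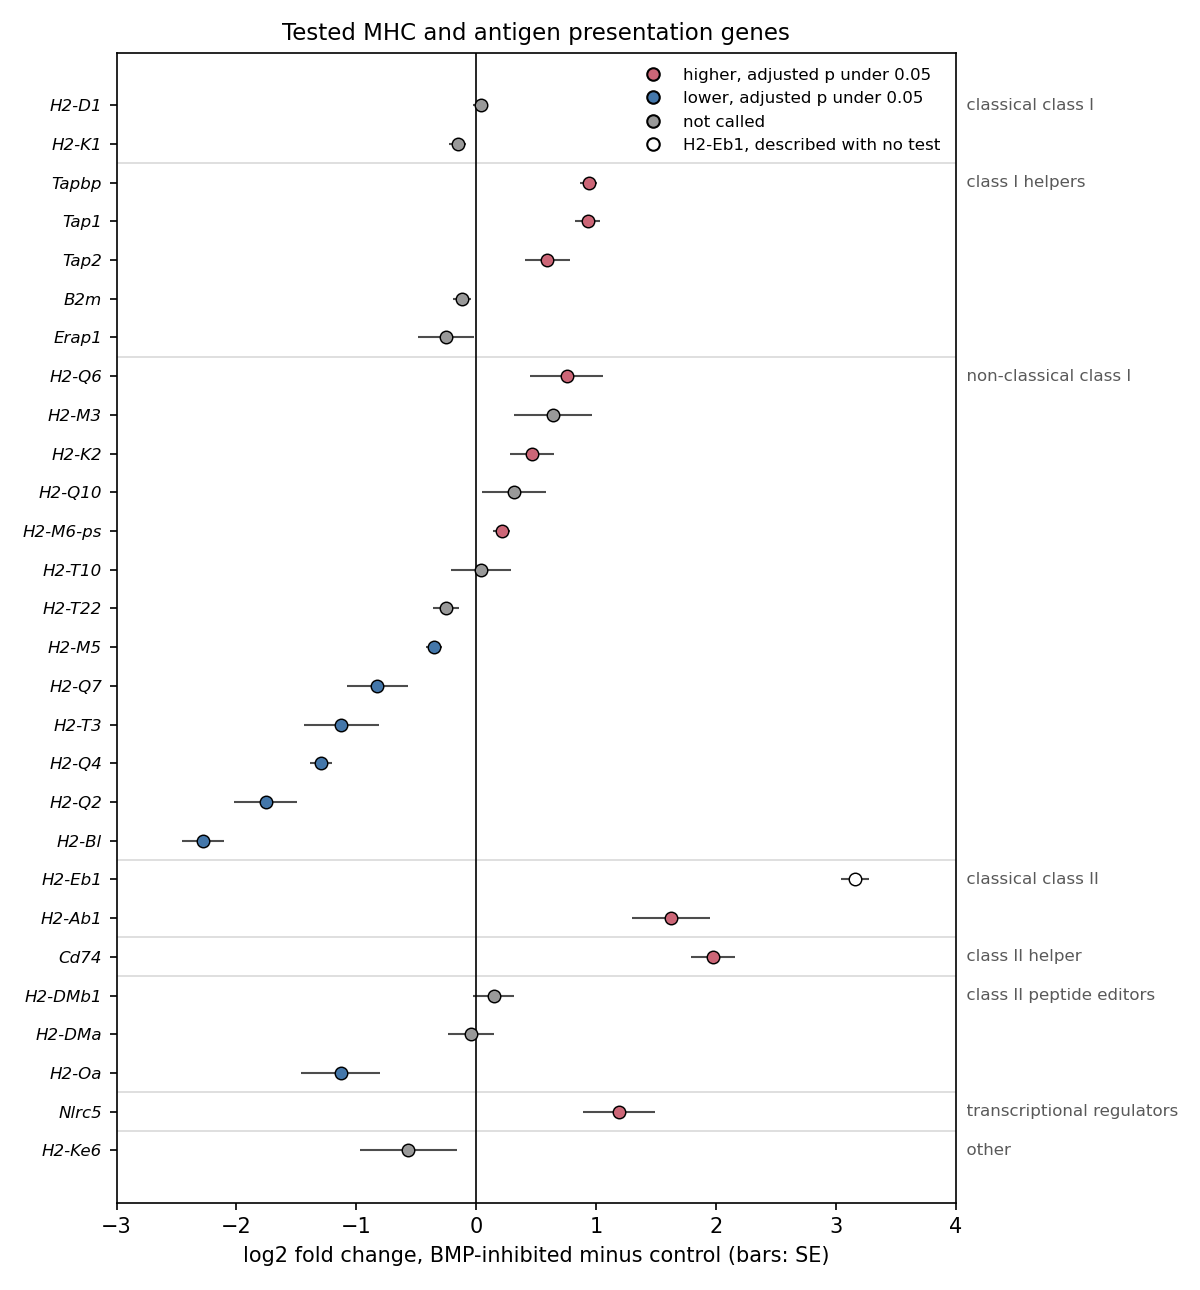
Log2 fold changes of 28 tested members by class, BMP-inhibited minus control, with bars for 1 standard error and 3 libraries per group; H2-M10.4, with 1 count in all controls, is left out. H2-Eb1 (3.16), Cd74 (1.98), H2-Ab1 (1.63) and Nlrc5 (1.19) lie farthest to the right, and H2-Bl (-2.28), H2-Q2 (-1.76), H2-Q4 (-1.29) and H2-Oa (-1.13) farthest to the left.

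Levels were compared between genes only per length, as CPM per kilobase of merged exons (RPKM). In controls the 6 highest members were H2-M6-ps at 36.9, B2m at 34.1, H2-M5 at 22.8, H2-D1 at 18.5, H2-Q4 at 12.7 and H2-K1 at 12.5 RPKM. H2-M6-ps and B2m, and likewise H2-Q4 and H2-K1, differed by less than the spread of the libraries, and with the longest transcript as the length H2-K1 stood at 19.6 and H2-Q4 at 12.7. H2-Bl stood at 4.03 and H2-T22 at 2.61 RPKM. H2-Eb1 held rank 13 in controls at 1.02 ± 0.0613 RPKM and rank 7 in BMP-inhibited cells at 9.18 ± 0.411 RPKM (SD, n = 3 each). There it stood below Tapbp and H2-K1, at 11.8 and 11.3 RPKM, and above H2-Q4, at 5.17 RPKM, and differed from each by more than the spread of the libraries. Cd74 moved from 0.753 to 2.97 RPKM and H2-Ab1 from 0.199 to 0.618 RPKM, both below H2-Eb1. With the longest transcript as the length, H2-Ab1 stood at 0.421 and 1.31 RPKM and Cd74 at 0.896 and 3.54 RPKM, and the control rank of H2-Eb1 was 15. Nlrc5 stood at 0.0827 and 0.190 RPKM.

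The other genes of these pathways were read from 9 lists, chosen with earlier results of these data known. Of their 60 genes, 51 were tested, with 22 called higher, 16 lower and 13 not called, and a median log2 fold change of 0.07. Without 2 genes that passed the count filter through the BMP-inhibited group alone, 20 of 49 were higher and the median was 0.02. These counts, and those of each list below, stand beside 32.5% of all genes tested called higher and 31.7% called lower.

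The loading partners are chaperones and glycan-processing enzymes that fold class I heavy chains in the endoplasmic reticulum. They fell in 6 of 6 tested genes (median log2 fold change -0.43), beside 31.7% of all genes tested called lower. The number called lower was 5 without control library 1 and 5 without control library 3. Calr, calreticulin, fell from 1031 ± 11.3 to 526 ± 34.4 CPM (log2 fold change -0.97, standard error 0.05, adjusted p = 9.9e-11). Pdia3, the disulfide isomerase of the loading complex, fell by 0.53 on the log2 scale (adjusted p = 2.16e-08), and Ganab, a glucosidase subunit, by 0.33 (adjusted p = 2.05e-06). They fell while Tapbp, Tap1 and Tap2 rose. Of 4 tested genes of the immunoproteasome and the PA28 activator, 1 was higher and 3 were not called. Psme2, a PA28 subunit, rose by 0.49 on the log2 scale (adjusted p = 6.73e-06). Psmb10 (log2 fold change -0.20, adjusted p = 0.0929) and Psmb9 (-0.38, adjusted p = 0.133) were not called, and Psmb8 had 6 counts against 27 and was not tested, although DESeq2 (log2 fold change 2.29, adjusted p = 0.0406) and edgeR without a count filter (2.21, adjusted p = 0.0125) called it higher. Psmb10 passed as lower with library totals (adjusted p = 0.0353). Among 5 peptidases that trim or destroy peptides, 4 rose and 1 was not called. Npepps rose by 0.62 (adjusted p = 4.95e-08), Tpp2 by 0.37 (adjusted p = 6.89e-06) and Thop1 by 0.29 (adjusted p = 2.46e-05) on the log2 scale.

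The factors that bind the X and Y boxes went both ways, with 3 of 7 higher, 3 lower and 1 not called. Nfya, a subunit of the CCAAT-binding factor NF-Y, fell by 0.45 on the log2 scale (adjusted p = 3.55e-07), and Nfyc, another subunit, rose by 0.44 (adjusted p = 4.96e-07). Creb1, which binds beside the RFX complex, fell by 0.48 (adjusted p = 1.01e-05). Of 10 genes of the interferon-gamma pathway, Gbp2 and Irf2 passed the count filter through the BMP-inhibited group alone. Of the other 8, 5 were higher and 3 were not called (median log2 fold change 0.41). The kinase gene Jak1 rose by 0.47 (adjusted p = 5.05e-07). Irf1, a transcription factor induced by interferon, rose from 26.3 ± 0.533 to 42.0 ± 3.55 CPM (log2 fold change 0.68, adjusted p = 5.13e-07). Gbp2, an interferon-induced GTPase, had 3 counts over all controls and 144 over the BMP-inhibited libraries. Of 7 NF-kappaB subunits and inhibitors, 4 were higher, 2 lower and 1 was not called. Rela rose by 0.63 (adjusted p = 2.25e-07), Nfkb2 fell by 0.52 (adjusted p = 1.08e-05) and Nfkb1 rose by 0.27 (adjusted p = 0.000120) on the log2 scale.

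The enzymes that cut antigens and the invariant chain, or that turn class II over, were lower in 5 of 6 tested genes (median -0.32), while Cd74 rose. Over all genes tested, 31.7% were called lower. Ctsl, cathepsin L, fell from 378 ± 4.98 to 175 ± 17.8 CPM (log2 fold change -1.11, standard error 0.06, adjusted p = 2.51e-10). Ifi30, a thiol reductase of lysosomes, fell by 0.52 (adjusted p = 6.43e-07) and Ctsb, cathepsin B, by 0.39 (adjusted p = 7e-07). Of class I-like genes outside the H2 names, 2 of 3 tested were higher. Fcgrt, the neonatal Fc receptor chain, rose by 0.58 (adjusted p = 7.11e-05) and Procr, the protein C receptor, by 1.63 (adjusted p = 0.000647). Procr had 39 counts in controls and 112 in BMP-inhibited libraries. All 3 BMP-inhibited libraries but only 2 controls reached the level of the count filter. Cd1d1, which presents lipids, was not called (log2 fold change -0.25, adjusted p = 0.103). Cd1d1 passed as lower with library totals (adjusted p = 0.0471). Of 3 tested NKG2D ligands, surface proteins seen by natural killer cells, Raet1d rose by 1.94 on the log2 scale (adjusted p = 1.78e-05). Raet1e (log2 fold change 0.13, adjusted p = 0.365) and Ulbp1 (-0.13, adjusted p = 0.289) were not called. Raet1d and Raet1e share exons on the same strand and are uncertain apart. H60c had 4 counts against 32 and H60b 3 against 20, and neither was tested. H60c was called higher with DESeq2 (adjusted p = 0.0107). It was also called without any 1 control library or without BMP-inhibited library 2. In those fits it passed the count filter through the BMP-inhibited group alone, so it had to differ and no p is given.

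Genes near H2-Eb1 moved in both directions. Of 27 genes within 200 kb, 9 were tested besides H2-Eb1, of which 4 were higher, 2 lower and 3 not called (median log2 fold change 0.15). Over all genes tested, 32.5% were called higher and 31.7% lower, so calls in both directions are common. The nearest tested gene was H2-Ab1, 36448 bp away. Btnl1, a butyrophilin-like gene 60458 bp away on the other side, fell from 206 to 52 counts over 3 libraries (log2 fold change -1.85, adjusted p = 0.00011). BC051142, 82146 bp away, had 57 and 23 counts (log2 fold change -1.18, adjusted p = 0.0496). It is 1 of the 2 neighbours called lower. All 3 controls but only 1 BMP-inhibited library reached the level of the count filter, so the controls brought it into the test. Its call was lost without any 1 control library (adjusted p = 0.131, 0.0738 and 0.109) and without BMP-inhibited library 1 (0.125) or 2 (0.177), with DESeq2 (0.119) and with RLE factors in edgeR (0.0505). Tap2 lay 89546 bp away. The antisense gene Gm20513 spans the start of H2-Eb1 and had 0 counts in every library.

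**Figure D4:**
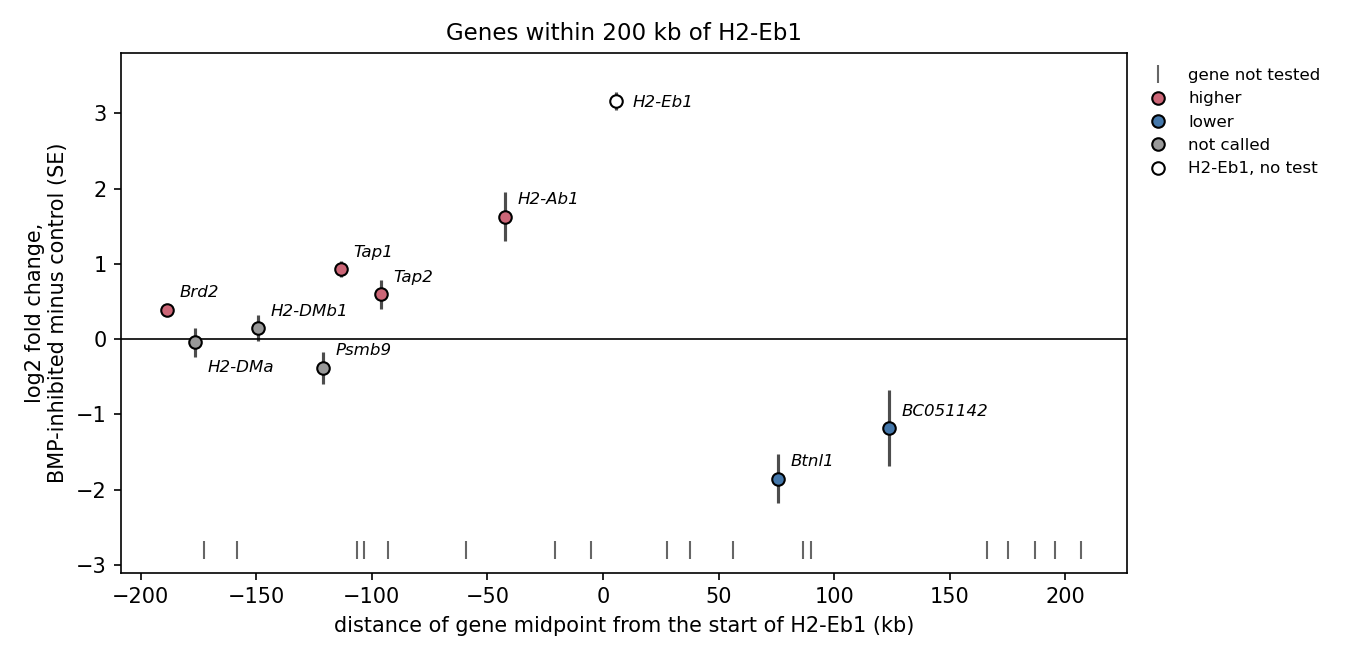
Log2 fold change, BMP-inhibited minus control, with 1 standard error, against the distance of each gene's midpoint from the start of H2-Eb1 in kb, for 9 tested neighbours and H2-Eb1; ticks mark genes that were not tested. H2-Ab1, Tap1, Tap2 and Brd2 are called higher, and Btnl1 and BC051142, on the other side of H2-Eb1, are called lower. BC051142 was brought into the test by the control libraries.

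Class II genes are normally read from professional antigen-presenting cells, so markers of other cell types are given beside them. In bulk libraries more cells of a type and more RNA per cell cannot be told apart. The marker counts stand beside 32.5% of all genes tested called higher and 31.7% called lower. Of 16 markers of blood and antigen-presenting cells, 8 were tested, with 3 higher and 1 lower, or 1 higher and 1 lower of 6 without Csf1r and Fcer1g, which passed the count filter through the BMP-inhibited group alone. Adgre1, Lyz2 and Tyrobp, which mark macrophages and other myeloid cells, had 0 counts in every library, and Itgax, of dendritic cells, had 0 in all controls. Ptprc, the common leukocyte antigen, had 3 counts in controls and 5 in BMP-inhibited libraries. Csf1r, a macrophage receptor, had 5 and 90 counts. Of the 6 tested without Csf1r and Fcer1g, Cd68 was called higher, from 17.9 to 25.5 CPM (log2 fold change 0.51, adjusted p = 0.000109), and Laptm5 lower. Spi1 (4.97 and 4.52 CPM), Coro1a (3.49 and 3.58 CPM), Cd79a and Itgam were counted in every library and not called. The summed level of the 16 markers was 377 to 382 CPM in controls and 249 to 314 CPM in BMP-inhibited libraries, and most of these counts came from Laptm5, at 351 and 233 CPM. Of 8 trophoblast markers, 5 of 6 tested were higher (4 of 5 without Hand1, which passed the filter through that group alone), with sums of 164 to 168 and 298 to 380 CPM. Of 8 fibroblast markers, 3 of 4 tested were higher (2 of 3 without Postn, likewise), with sums of 6.44 to 7.87 and 10.2 to 11.3 CPM. Of 6 endothelial markers, 2 of 5 tested were higher and 2 lower (0 and 2 of 3 without Flt1 and Kdr, likewise), with sums of 222 to 226 and 153 to 204 CPM. The 8 pluripotency markers, which define the labelled cell type, were all counted in every library, with 1 higher and 5 lower and sums of 4538 to 4669 and 3835 to 4087 CPM. The part of these shifts in the levels of the MHC genes was not tested.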

How the data were processed

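Poly(A) mRNA libraries were made with a strand-marking kit and sequenced, per the labels' protocols. The authors deposited raw read counts per gene for each of the 6 libraries, as whole numbers. The submitters' processing notes name, without their roles, STAR 2.6.1, HTSeq 0.9.1, cutadapt 1.4.2, CASAVA 1.8.2, DESeq2 and GRCm38.p6. The strand setting of the counting was not given in the sources used here. The tables held 5 rows each that named no gene, with 25.6% to 26.4% of the reads, which stayed out of library sizes and tests.

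GENCODE M21 on the same build named 53360 of 53465 identifiers. Counts passing the default filter of edgeR 4.0.16 (minimum count 10, total 15) were TMM-scaled in R 4.3.3 and compared with its two-sided quasi-likelihood F test, adjusted by Benjamini-Hochberg, at 0.05. Standard errors come from the coefficient and its F statistic. Gene lengths are merged annotated exons. The test was tested on simulated data. Near-identical transcripts were sought with BLAST 2.17.0 (90% identity over 50% of the longest transcript). DESeq2 1.42.0, other scalings and filters, a replicate block and leaving out each library were the alternatives.

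Members and lists were chosen with earlier results of these data known. Every tested member was named, with untested members of at least 10 counts, up to 3 genes per other list by smallest p and the 4 tested genes nearest H2-Eb1. Psmb8, H60b, H60c, Irf2, Gm20513, the marker genes named and the 4 printed promoters were chosen after their values were seen. Gene counts of 31474666 to 35322844 per library set the precision, and binomial intervals cover counting error only. The other genes of the lists were counted without being named, and some are not reported here.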

Additional observations from a re-analysis of the deposited data

How the results depend on the processing

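Of 327 values of the 28 tested members under 12 alternatives, 305 kept their side of the threshold, 16 lost a call and 6 gained one. No called value changed sign. The calls lost or gained concerned 8 members, and the adjusted p of each is given beside its value. Among the 305, values near 0 that were not called crossed 0 for H2-D1 (log2 fold change -0.02 to 0.10), H2-DMa (-0.20 to 0.05) and H2-T10 (-0.14 to 0.19). The number of members called higher was 10, and 6 with a minimum count of 50, under which fewer genes were tested. It ranged from 8 to 11 when a library was left out, and members called lower from 7 to 9. Neighbours of H2-Eb1 called lower numbered 2, and 1 with DESeq2, with RLE factors and with a minimum count of 50. Leaving out a library gave 1 to 2. Of the untested members, 2 were called without the count filter, H2-Aa (log2 fold change 3.92, adjusted p = 0.00221) and H2-T-ps (1.64, adjusted p = 0.0334), and DESeq2 also called H2-Aa (4.27, adjusted p = 0.0151). H2-T-ps was also called without control library 1, control library 2 or BMP-inhibited library 3. There it passed the count filter through the BMP-inhibited group alone, so it had to differ and no p is given. All 10 genes of the interferon-gamma list gave 7 calls higher and 0 lower, 5 to 6 higher when a library was left out, 6 with DESeq2, 5 with a minimum count of 50, and 5 higher and 1 lower with library totals. Over all genes the number called was 10236 and lay between 9087 and 10890. Scaling by library totals alone moved the median of all genes to -0.06. Replicate numbers did not pair the libraries, since same-numbered libraries had correlations of their deviations of -0.044, 0.008 and 0.029. With the replicate block 10210 genes were called, and the members stayed at 10 higher and 7 lower. Of the 24 members that did not reach the count filter, 11 had 0 counts in every library.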
